A study of Mus musculus with 15 samples.

Results

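The genes followed here, 10 of the 16729 with a value, make, break down or sense prostaglandins: Pla2g4a, Ptgs1, Ptgs2, Ptges, Ptges2, Ptges3, Hpgd, Ptgr1, Ptger2 and Ptger4. They were selected by symbol, through the Ensembl identifier of each gene, and earlier results of these data were known when they were chosen.

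Prostaglandins are short-lived lipid signals made from arachidonic acid. A phospholipase frees the fatty acid from membranes, a cyclooxygenase turns it into prostaglandin H2, and separate synthases turn that into PGE2, prostaglandin F2α and others. Cells respond to PGE2 through receptors of the EP family, while dehydrogenases and reductases inactivate it. In the uterus these signals are known for their part in implantation, decidualization and labor.

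The values come from RNA-seq of mouse endometrial organoids, which are cultures of uterine epithelial cells that grow as hollow or lobed bodies in Matrigel. Control mice carried Smad2flox/flox and Smad3flox/flox alleles, and Smad2/3 cKO mice carried both of these floxed pairs together with Ltfcre/+. The mice were of a mixed C57BL/6J and 129S5/SvEvBrd background, and studies used adults of 6 to 8 weeks unless another age was given, with none given for the organoids. Cre driven by the lactoferrin gene acts in uterine epithelium, and recombination in it need not reach every cell. Per the methods, mice were given estradiol at weaning to induce this Cre, and the organoid mice are not listed separately. A83-01 at 500 nM inhibits the receptor kinases ALK4, ALK5 and ALK7, which act through SMAD2 and SMAD3, and the vehicle was DMSO. The groups were control + vehicle (DMSO, n = 3), control + A83-01 (n = 4), Smad2/3 cKO (floxed alleles, Ltf-cre and DMSO, n = 4) and Smad2/3 cKO + A83-01 (n = 4). All 15 cultures shared a medium with EGF, FGF10, HGF, nicotinamide and media conditioned with WNT3a, R-spondin and Noggin.

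Normalized counts, the unit used throughout, are the authors' estimated counts per gene scaled between samples. They summed to 20.2 to 24.4 M per sample, and 14 samples held an estimated 18.5 to 23.3 M reads, against 43.3 M in Smad2/3 cKO + A83-01 replicate 3. The targeted genes checked the labels only in part, since whole-gene values include the exons that Cre leaves: Smad2 had 1045 to 1335 counts in control + vehicle and 821 to 924 in Smad2/3 cKO, without overlap (log2 fold change −0.41, limma adjusted p = 0.0656), and Smad3 had 1532 to 1741 and 1170 to 1977 (−0.07, adjusted p = 0.827). With A83-01, Smad2 had 912 to 1062 counts in control and 804 to 1211 in Smad2/3 cKO organoids, and Smad3 had 669 to 2003 and 797 to 1689. The epithelial marker Epcam lay between 19889 and 28844 in all samples, and Foxa2, a marker of uterine glands, between 81.8 and 364.8. Of 12 epithelial markers only Elf3 passed the thresholds used below in any comparison, lower in Smad2/3 cKO (log2 fold change −1.22), and the others include Ltf, the source of the Cre driver, lower there as well but not past them (limma adjusted p = 0.0232). Of the endothelial list 2 of 6 markers had a value, summing to at most 27.6, and 4 of 7 mast cell markers summed to 3.98 to 249.7. One library stood apart: Smad2/3 cKO replicate 2 had 3372 counts of Lyz2 and 155 of C1qa, macrophage genes that reached at most 86.9 and 0 in the other 14 samples. For Pla2g4a, Ptges2 and Ptgr1, the comparison of Smad2/3 cKO with control + vehicle is given with and without this library. The main results of the other prostaglandin genes include it.

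Different genes were compared per kilobase of exon, with the exons of all annotated transcripts of a gene merged. The ranks and shares depend on this length, which was 4.98 kb for Ptges2, the longest of the 10, and 2.00 kb for Ptges3. Transcripts shorter than the merged exons come out too low. On this scale Ptges3 had the highest level of the 10 genes in every group, with 1405 ± 184 (SD, n = 3) normalized counts per kb in control + vehicle. Ptgs1 came next there with 948 ± 541, then Ptger4 with 469 ± 83.8, Pla2g4a with 445 ± 74.5 and Ptges2 with 391 ± 38.5. The last 3 overlapped within their spread. In Smad2/3 cKO organoids Pla2g4a took the place after Ptges3, with 862 ± 149 per kb (SD, n = 4), ahead of Ptgs1 with 734 ± 235 and Ptger4 with 667 ± 101, and these also overlapped. Ptges, Ptger2 and Hpgd lay at the other end in all groups. Averaged over the 15 samples, the gene Ptges had a normalized count of 18.4, Ptger2 of 27.4 and Hpgd of 1.07, which places them at or below the 28.3rd percentile of all genes listed.

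**Figure D1:**
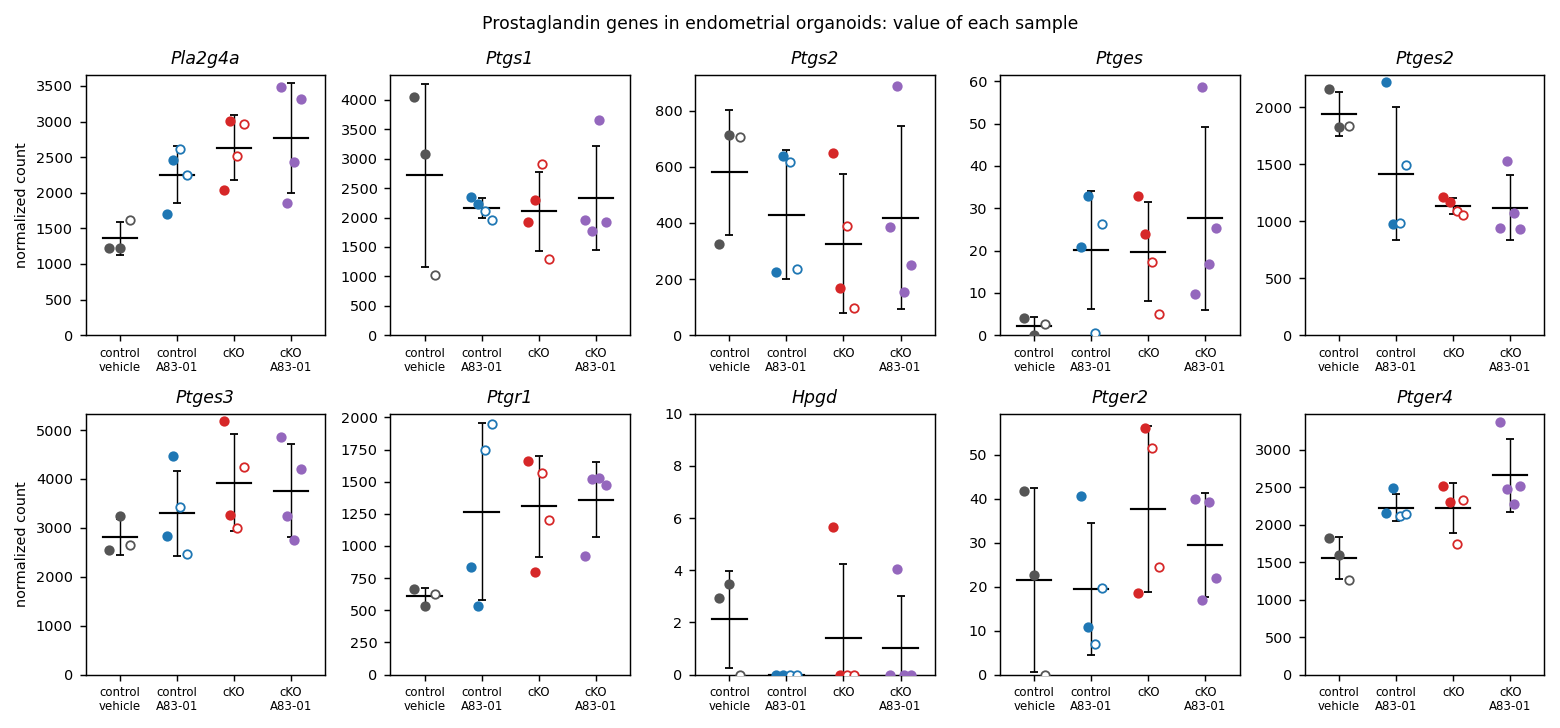
Normalized count (linear axis from 0) of each of the 10 genes in each of the 15 organoid samples, by group. Points are samples, filled where the number in the label is below 390 and open where it is 390 or above, with the group mean (bar) and SD (whisker). The 4 Smad2/3 cKO samples lie above the 3 control + vehicle samples for Pla2g4a and below them for Ptges2, while Hpgd stays below 6 throughout.

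The first question was whether deleting Smad2 and Smad3 in the epithelium changed these genes. Of the 10 genes 9 could be tested in Smad2/3 cKO against control + vehicle, and 2 passed a limma Benjamini-Hochberg adjusted p of 0.01 with a change beyond 1.4-fold in either direction. Pla2g4a rose and Ptges2 fell. Among all 13149 genes tested 970 passed (7.38%), of which 536 were higher (4.08%) and 434 lower (3.30%). With samples scaled to equal totals, 440 were higher and 538 lower. At an unadjusted limma p below 0.05 there were 6 of the 9 genes, where 33.7% of all genes stood. The median log2 fold change of the 9 genes was 0.51 and that of all genes tested 0.00.

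Pla2g4a (ENSMUSG00000056220, minus strand of chromosome 1, GRCm38 149829618 to 149961290) encodes the cytosolic phospholipase A2 that releases arachidonic acid. Its normalized counts were 1224, 1231 and 1621 in the control + vehicle samples and 2040, 3012, 2512 and 2961 in the Smad2/3 cKO samples. Every Smad2/3 cKO sample thus lay above every control + vehicle sample. The fitted rise was 1.93-fold (log2 fold change 0.95, standard error 0.176, limma adjusted p = 0.00702).

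Ptges2 (ENSMUSG00000026820, plus strand of chromosome 2, GRCm38 32395896 to 32405772) encodes one of the enzymes named as PGE2 synthases. Its normalized counts were 2166, 1831 and 1839 in control + vehicle and 1218, 1167, 1087 and 1060 in Smad2/3 cKO organoids. The groups did not overlap, and the 4 Smad2/3 cKO values lay close together. The fold change was 0.584 (log2 fold change −0.78, standard error 0.127, limma adjusted p = 0.00420).

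The promoters of these 2 genes are shown because they were the ones to pass the thresholds, and in opposite directions. Each stretch holds the 250 bases before the start site in RefSeq (GRCm38.p6), written 5′ to 3′ on the gene's own strand, from chr1:149961291-149961540 (minus strand) for Pla2g4a and chr2:32395640-32395889 (plus strand) for Ptges2. RefSeq lists 2 start sites for Pla2g4a, of which 1 is shown.
Pla2g4a: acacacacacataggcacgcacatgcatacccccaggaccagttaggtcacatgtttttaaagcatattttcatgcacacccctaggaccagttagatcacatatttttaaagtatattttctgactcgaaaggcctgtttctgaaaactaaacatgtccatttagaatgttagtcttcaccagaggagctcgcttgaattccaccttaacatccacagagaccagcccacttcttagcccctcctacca
Ptges2: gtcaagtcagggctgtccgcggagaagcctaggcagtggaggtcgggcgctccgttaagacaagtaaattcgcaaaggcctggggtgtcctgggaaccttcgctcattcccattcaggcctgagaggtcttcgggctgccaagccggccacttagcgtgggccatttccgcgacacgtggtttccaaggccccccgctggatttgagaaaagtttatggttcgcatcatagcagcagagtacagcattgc
The letters GTCTG, which the authors report as a SMAD binding element, and their reverse complement CAGAC were searched for on these stretches. Shorter forms of this element were not searched for. Neither promoter holds a match to the full GTCTG or CAGAC, so nothing is set in capitals. Among the 10 genes 4 hold at least 1 match (Ptgs1, Ptgs2, Ptges and Ptger4), and 42.2% of all 32851 RefSeq promoters of this length do. GC content was 43.2% in the Pla2g4a stretch and 57.6% in that of Ptges2, against a median of 52.4% over all promoters.

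Both calls stood close to the threshold. Without Smad2/3 cKO replicate 2, the library with macrophage genes, Pla2g4a was 0.88 higher on the log2 scale (limma adjusted p = 0.0176) and Ptges2 kept its call (−0.79, adjusted p = 0.00941). The call of Pla2g4a was also lost without control + vehicle replicate 1 (adjusted p = 0.0349) or 2 (0.0337) and without Smad2/3 cKO replicate 3 (0.0131) or 4 (0.0230). That of Ptges2 was lost without any 1 of the 3 control + vehicle samples (adjusted p = 0.0214, 0.0160 and 0.0107) and without Smad2/3 cKO replicate 4 (0.0150). The sizes moved little, from 0.88 to 1.08 for Pla2g4a and from −0.82 to −0.70 for Ptges2.

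A replicate block gave 0.89 for Pla2g4a (limma adjusted p = 0.0317) and −0.75 for Ptges2 (0.0260), but only replicate 1 shares its label number between these groups, and samples of the same replicate number correlated at a mean r of 0.0583 in their deviations from the group means. Within the samples whose label number is below 390 (2 against 2) Pla2g4a differed by 1.01 and Ptges2 by −0.74 on the log2 scale. Within those at 390 or above (2 against 1) the differences were 0.75 and −0.78.

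Markers of other cells moved between these groups too. Of 8 leukocyte markers tested, Ptprc alone passed, with a log2 fold change of 3.33 (limma adjusted p = 0.00228) from 12.5 to 38.5 counts in control + vehicle to 123 to 309 in Smad2/3 cKO. Summed over the 8 of 9 leukocyte genes with a value, control + vehicle samples had 1328 to 2978 counts, control + A83-01 samples 3418 to 8765, Smad2/3 cKO samples 2117 to 8726 and Smad2/3 cKO + A83-01 samples 4032 to 7982. Cd68 made most of the sums of the control groups, with 1180 to 2474 counts in control + vehicle and 3024 to 8115 in control + A83-01. Of the 5 leukocyte markers tested between the control groups, Ptprc, Cd68 and Csf1r were higher with A83-01. Lyz2 and Itgam were lower (log2 fold change −2.72 and −2.32, limma adjusted p = 0.0223 and 0.212). C1qa was at 0 in 14 of the 15 samples and C1qb in 13. Sums over the 4 of 6 smooth muscle genes with a value went the other way, with 3015 to 5526 counts for control + vehicle samples and 1567 to 2804 for Smad2/3 cKO samples. Smtn gave most of these counts, with 2960 to 5414 and 1553 to 2795. The 8 of 10 stromal genes with a value had sums of 310.3 to 466 for control + vehicle samples and 127 to 279 for Smad2/3 cKO samples. Nr2f2 gave most of these, with 265 to 323 and 119 to 257. Of the smooth muscle genes Acta2 passed (log2 fold change −3.12, limma adjusted p = 0.00841). The 12 epithelial genes, Ltf foremost, summed to 694052 to 948518 for control + vehicle samples against 223927 to 453952 for Smad2/3 cKO samples. They did not all move together. Pax8 was higher in Smad2/3 cKO without overlap (log2 fold change 0.66, limma adjusted p = 0.0186), and Epcam (0.05), Muc1 (−0.10) and Foxa2 (−0.04) changed little. The rest were lower, of which Elf3 alone passed. The part of these cells in the values of the prostaglandin genes was not tested, and in bulk RNA fewer cells of a type cannot be told apart from less RNA per cell.

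Ptgr1 (ENSMUSG00000028378, chromosome 4, GRCm38 58965439 to 58987119) encodes a reductase that acts on prostaglandins already oxidized by Hpgd and on leukotriene B4. Its normalized counts were 666, 536 and 624 in control + vehicle against 1660, 798, 1568 and 1204 in Smad2/3 cKO. The groups did not overlap, but limma gave an adjusted p of 0.0193 for the log2 fold change of 1.05, above the threshold. Smad2/3 cKO replicate 2 was the lowest of its group, and without it the difference was 1.27 with an adjusted p of 0.00421.

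Ptges (ENSMUSG00000050737, chromosome 2, GRCm38 30889471 to 30929863), the inducible PGE2 synthase, was listed at 3.99, 0 and 2.75 in control + vehicle and at 32.8, 23.9, 17.3 and 5.03 in Smad2/3 cKO. These samples did not overlap either. The adjusted p was 0.0646 from limma, and the size of the difference could not be fixed, because the control values are worth a few reads each: on the log2 scale it ran from 1.19 to 3.95 across pseudocounts, scalings and models. Thus 4 of the 9 genes had groups that did not overlap, where 30.8% of all genes tested did.

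The cyclooxygenases did not pass. Ptgs1, the constitutive COX-1 (ENSMUSG00000047250, chromosome 2, GRCm38 36230426 to 36252272), spread in control + vehicle from 1016 in replicate 3 through 3084 in replicate 2 to 4050 in replicate 1. The Smad2/3 cKO samples, at 1916, 2298, 2905 and 1298, all lay inside that range, and the log2 fold change was −0.21 (95% interval −1.08 to 0.67). Its direction followed the label numbers: below 390 the difference was −0.75, and at 390 or above, where replicate 3 was the lone control, it was 0.93. Ptgs2, the inducible COX-2 (ENSMUSG00000032487, chromosome 1, GRCm38 150100031 to 150108227), had 324, 712 and 705 counts against 648, 168, 391 and 98.0. The difference was −1.10 on the log2 scale (95% interval −2.28 to 0.08, limma adjusted p = 0.235). The 95% intervals here and below are normal approximations from the limma standard error. They are narrower than the t-distribution behind the p-values would give.

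The remaining genes tested stayed above the threshold as well. Ptges3 (ENSMUSG00000071072, chromosome 10, GRCm38 128058954 to 128077272), which encodes a PGE2 synthase that is also the HSP90 cochaperone p23, had a log2 fold change of 0.46 (adjusted p = 0.144), and a processed pseudogene of it, Ptges3-ps, is listed separately, so reads could be split between them. Ptger4, the receptor EP4 (ENSMUSG00000039942, chromosome 15, GRCm38 5206661 to 5244187), had 1818, 1597 and 1264 counts in control + vehicle and 2513, 2296, 1736 and 2330 in Smad2/3 cKO. One Smad2/3 cKO sample, replicate 3, fell inside the control range, and the difference of 0.51 on the log2 scale did not pass (limma adjusted p = 0.0730). Ptger2, the receptor EP2 (ENSMUSG00000037759, chromosome 14, GRCm38 44988195 to 45003820), had 0 to 41.9 counts against 18.6 to 56.0, a log2 fold change of 1.80 (95% interval −0.51 to 4.11) that went to 0.14 without control + vehicle replicate 3, where it was at 0, and to 2.85 without replicate 1. Hpgd, the 15-hydroxyprostaglandin dehydrogenase that starts PGE2 breakdown (ENSMUSG00000031613, chromosome 8, GRCm38 56294585 to 56321043), was listed at 0 in 11 of the 15 samples and at no more than 5.67 in the others, too low to test.

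**Figure D2:**
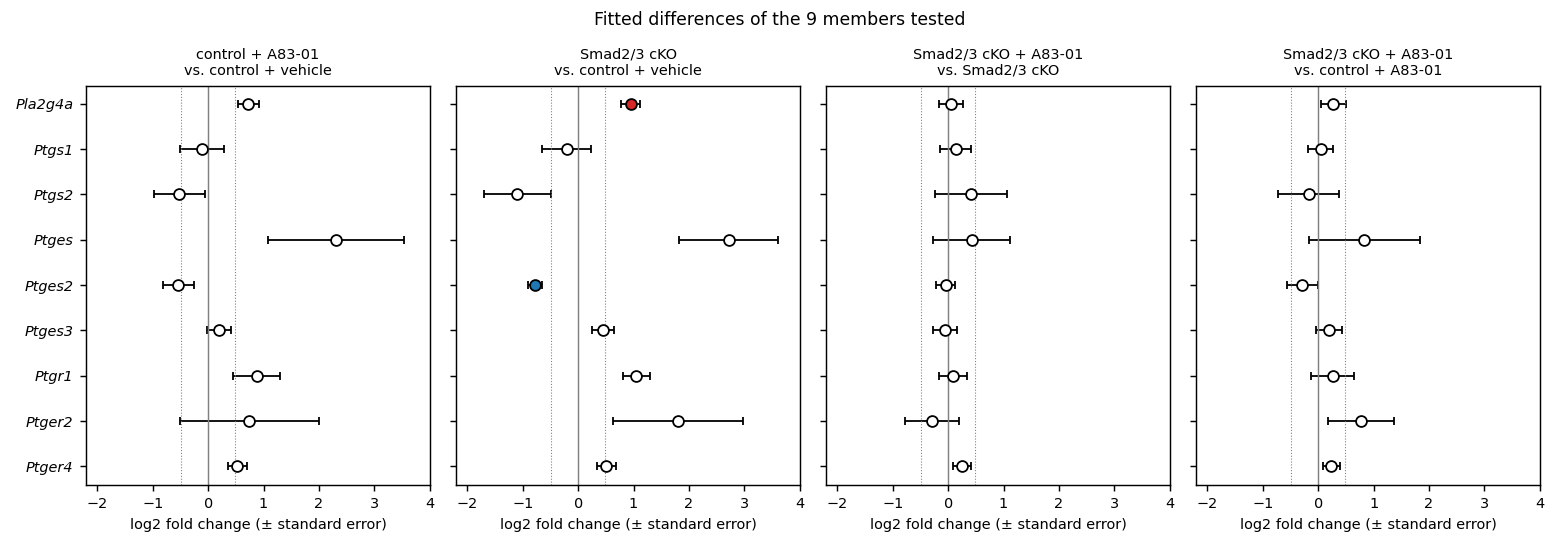
Fitted log2 fold change (points) with its standard error (whiskers) for the 9 genes tested in the 4 comparisons of 2 groups. Dotted lines mark a 1.4-fold change in either direction, and filled points passed both thresholds. Pla2g4a at 0.95 and Ptges2 at −0.78 in Smad2/3 cKO vs. control + vehicle are the only filled points.

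The second question was what the receptor inhibitor did in control organoids. In control + A83-01 against control + vehicle, 0 of the 9 genes tested passed the limma thresholds, where 295 of 13009 genes did (2.27%), 155 of them higher (1.19%) and 140 lower (1.08%). At an unadjusted limma p below 0.05 there were 2 of the 9, Pla2g4a and Ptger4, a share like the 22.2% of all genes tested, and these were also the 2 whose groups did not overlap, as was the case for 21.7% of all genes tested. This comparison uses the same 3 control + vehicle samples as the last one.

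Pla2g4a had 1701, 2464, 2609 and 2245 counts with A83-01, all above the highest control + vehicle sample at 1621. Its log2 fold change was 0.72 (standard error 0.195, limma adjusted p = 0.0576). The first 3 replicates of each control group share a number in their labels and can be paired, and the A83-01 sample of the pair was higher by 0.48, 1.00 and 0.69 on the log2 scale. With this replicate block the difference was 0.72 with an adjusted p of 0.0295, still above the threshold.

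Ptger4 had 2157, 2492, 2119 and 2143 counts with A83-01, above every control + vehicle sample. The log2 fold change was 0.53 (standard error 0.166, limma adjusted p = 0.0972), the 3 pairs gave 0.25, 0.64 and 0.74, and the adjusted p was 0.0666 with the replicate block. Ptges3 was also higher in 3 of 3 pairs, by 0.15 to 0.47, and Ptgs2 in 0 of 3, with differences of −0.52 to −0.15. None of these passed the test.

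Ptges2 differed among the A83-01 samples themselves, with 2220 in replicate 1, inside the control + vehicle range, and 981, 983 and 1496 in the others. The log2 fold change was −0.54 (limma adjusted p = 0.317). Ptgr1 split by label number: with A83-01 it had 833 and 535 counts in the samples numbered below 390 and 1749 and 1952 in those above, so the difference from control + vehicle was 0.16 below 390 and 1.56 at 390 or above. Pooled it was 0.87 (adjusted p = 0.268). What the number stands for is not given in the sources used here, and 1 number occurs in both genotypes.

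Ptgs1 was more even with A83-01, at 1954 to 2350, than in control + vehicle, and its log2 fold change of −0.11 combined −0.63 below 390 with 1.00 at 390 or above. Ptges was listed at 20.8, 32.9, 0.487 and 26.3 with A83-01, so that replicate 3 lay within the control + vehicle range (adjusted p = 0.314). Ptger2 had 6.86 to 40.6 counts (adjusted p = 0.790).

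The other comparisons asked whether A83-01 added anything once Smad2 and Smad3 were deleted, and whether genotype mattered under the inhibitor. In Smad2/3 cKO + A83-01 against Smad2/3 cKO, 0 of the 9 genes passed with limma, 0 had an unadjusted p below 0.05 and 0 had groups that did not overlap. Among all 12998 genes tested 0 passed (0%), 554 had an unadjusted p below 0.05, and 2.90% had no overlap. Pla2g4a had 3488, 1854, 2428 and 3315 counts in Smad2/3 cKO + A83-01, a log2 fold change of 0.05 (95% interval −0.37 to 0.47). Ptges2 had 941, 1533, 1076 and 933, a log2 fold change of −0.04 (95% interval −0.37 to 0.28). Ptger4 had 3373, 2470, 2274 and 2509, with a log2 fold change of 0.26 (95% interval −0.06 to 0.57).

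In Smad2/3 cKO + A83-01 against control + A83-01, again 0 of the 9 genes passed with limma and 0 had an unadjusted p below 0.05, where 3 of 12915 genes passed (0.0232%) and 1229 (9.52%) had such a p. Groups without overlap were found for 0 of the 9 and for 6.12% of all genes tested. The log2 fold change was 0.27 for Pla2g4a (95% interval −0.17 to 0.71), −0.29 for Ptges2 (−0.84 to 0.26) and 0.26 for Ptgr1 (−0.50 to 1.03). The interval of Ptges2 holds the −0.78 of the vehicle-treated genotypes. That of Pla2g4a ends below their 0.95 but overlaps the 95% interval of that difference, 0.60 to 1.29. For Ptges, Ptgs2 and Ptger2 the standard errors of 0.547 to 1.00 left more room still. The intervals compared here are normal approximations, and intervals from the t-distribution would be wider.

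Whether the effect of A83-01 differed between genotypes was tested in 1 fit of all 15 samples. None of the 9 genes passed with limma (72 of 13066 genes did, 0.551%, of which 13, 0.0995%, were higher and 59, 0.452%, lower). Pla2g4a alone of the 9 had an unadjusted p below 0.05, as had 14.3% of all genes tested. Its difference was smaller in Smad2/3 cKO by 0.68 on the log2 scale (interaction −0.68, standard error 0.304, adjusted p = 0.324). All 4 Smad2/3 cKO + A83-01 samples carry label numbers below 390, so this contrast could not be taken within the higher numbers.

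For the cyclooxygenases, the PGE2 synthases and the PGE2 receptors, most of the per-kilobase total came from 1 gene in every group. Ptgs1 gave 69.1% to 97.3% of the cyclooxygenase total over the 15 samples (median 92.0%). Control + vehicle samples had a share of 83.8 ± 13.3% (SD, n = 3) and Smad2/3 cKO samples one of 91.3 ± 6.30% (SD, n = 4), closer than their spread. Ptger4 gave 96.0% to 99.4% of the total of the PGE2 receptors with a value, Ptger1, Ptger2 and Ptger4. The library kit does not mark strand, so reads of genes that overlap on opposite strands cannot be told apart.

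Among the PGE2 synthases Ptges3 gave 74.5% to 92.7% of the per-kilobase total and Ptges at most 0.825%. Control + vehicle samples had a Ptges2 share of 21.9 ± 3.45% (SD, n = 3). Its share was 15.5 ± 7.50% (SD, n = 4) with A83-01 and 10.7 ± 2.17% (SD, n = 4) with the deletion, and with both it was 11.2 ± 4.15% (SD, n = 4). It did not go below 18.5% in control + vehicle or above 12.7% in Smad2/3 cKO. The fall of Ptges2 was part of this shift, so it is no separate result.

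**Figure D3:**
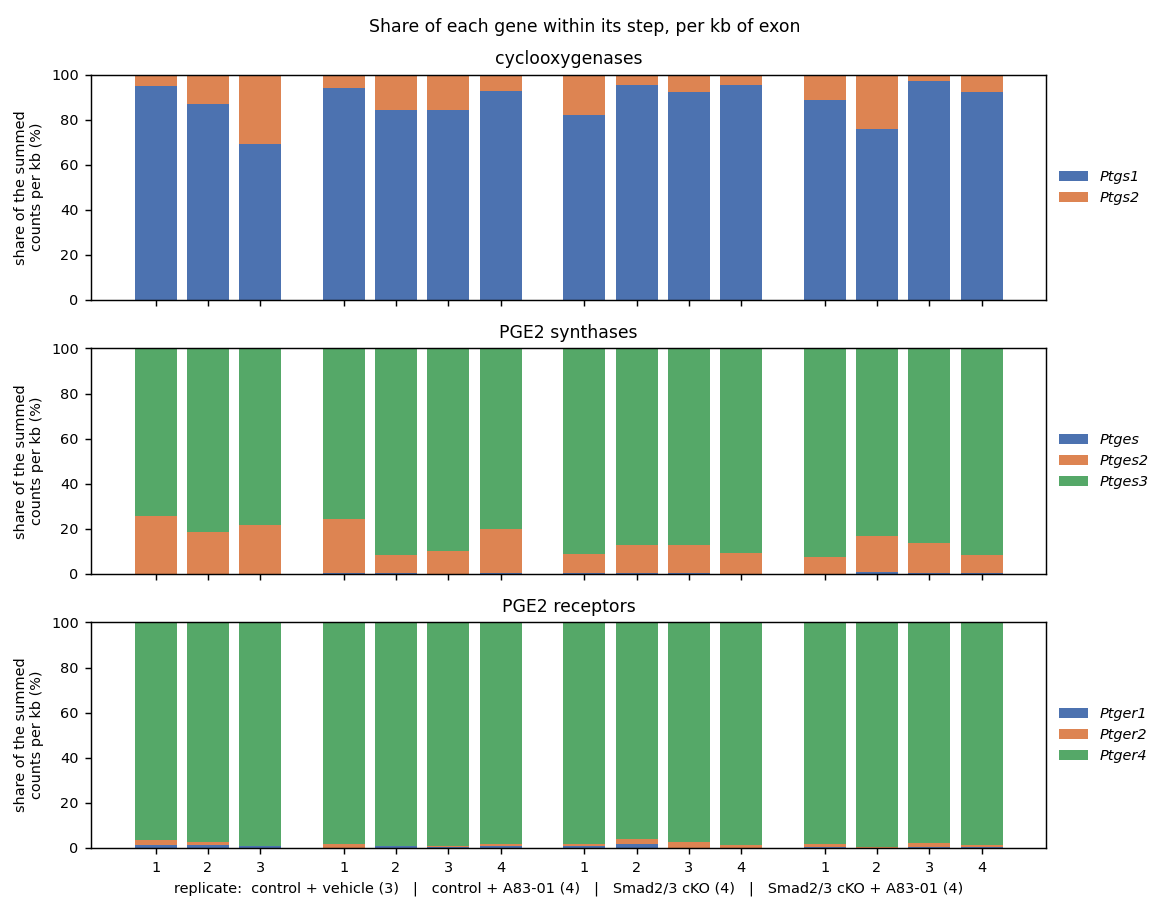
Share (%) of each gene in the summed normalized counts per kb of exon of its step, with 1 bar for each of the 15 samples. Ptgs1, Ptges3 and Ptger4 fill most of each bar, and the Ptges2 band is at least 18.5% in control + vehicle and at most 12.7% in Smad2/3 cKO.

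The genes whose levels ran most like those of the 2 that passed were found over the 15 samples among 13066 genes, as a description in which the samples share their group differences. Pla2g4a was most alike to Pdpk1, Hs3st3b1 and Crot (Pearson r on log2 values 0.954, 0.952 and 0.952). Ptges2 was most alike to Cdk4, Cuedc2 and Xpnpep1 (0.958, 0.943 and 0.941).

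Other genes of the pathway were followed in lists written from gene names, with earlier results of these data known. In Smad2/3 cKO against control + vehicle, 2 of 13 tested genes for phospholipases and arachidonate supply rose (Pla2g4a and Pla2g12a) and 1 fell (Acsl3). Of 15 prostaglandin synthase genes tested 2 rose (Akr1c18 and Akr1b7) and 1 fell (Ptges2), where 7.38% of all genes passed. Of 6 genes for transport and breakdown, 7 for receptors and 9 for lipoxygenases and leukotrienes, 0 passed with limma. In control + A83-01 against control + vehicle, Akr1c18 and Akr1b7 passed of 16 synthase genes and 0 genes of the other lists did, where 2.27% of all genes passed. In both comparisons that involve Smad2/3 cKO + A83-01, 0 genes of any list passed with limma.

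Akr1c18 (ENSMUSG00000021214, chromosome 13, GRCm38 4132615 to 4150654) encodes an aldo-keto reductase that inactivates progesterone and can make prostaglandin F2α. Its normalized counts were 4650, 4247 and 5452 in control + vehicle and between 64012 and 158226 in the 4 control + A83-01 samples. They were between 95623 and 147087 in Smad2/3 cKO and between 82169 and 137939 in Smad2/3 cKO + A83-01. Every sample of these 3 groups lay far above control + vehicle. The log2 fold change was 4.38 with A83-01 in control organoids (limma adjusted p = 0.000200) and 4.57 in Smad2/3 cKO (adjusted p = 1.19e-05). Between Smad2/3 cKO + A83-01 and Smad2/3 cKO it was 0.07 (95% interval −0.38 to 0.52), and the interaction was −4.31 (adjusted p = 4.62e-05).

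Akr1b7 (ENSMUSG00000052131, chromosome 6, GRCm38 34412334 to 34423142), an aldose reductase relative also reported to make prostaglandin F2α, was at 0, 2.68 and 5.31 in control + vehicle. It stood at 618, 482, 1820 and 1946 in control + A83-01, at 1246, 287, 462 and 883 in Smad2/3 cKO and at 1237 to 2986 in Smad2/3 cKO + A83-01. It passed in both comparisons with control + vehicle (limma adjusted p = 0.000549 and 0.000346), but the control level is too low to fix a fold. The interaction was −6.96 (adjusted p = 0.000863). Akr1b7 has close relatives among which reads could be split, and 348 of its exon bases lie opposite the pseudogene Gm13857.

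Pla2g12a (ENSMUSG00000027999, chromosome 3, GRCm38 129878606 to 129895825), a secreted phospholipase A2, had 1184, 923 and 1049 counts in control + vehicle and 2232, 1982, 1690 and 1903 in Smad2/3 cKO (log2 fold change 0.89, limma adjusted p = 0.00423). It had 1614 to 2515 with A83-01 in control organoids, again without overlap (log2 fold change 0.95, adjusted p = 0.0292). Acsl3 (ENSMUSG00000032883, chromosome 1, GRCm38 78657825 to 78707743), an enzyme that activates long-chain fatty acids, fell from 6368, 7587 and 6090 counts to 1818, 3080, 2076 and 1904 in Smad2/3 cKO (log2 fold change −1.62, adjusted p = 0.00112). With A83-01 it had 3063, 4824, 2035 and 1792 counts (log2 fold change −1.30, adjusted p = 0.0423). Acsl3 shares 206 exon bases with Utp14b on the same strand.

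**Figure D4:**
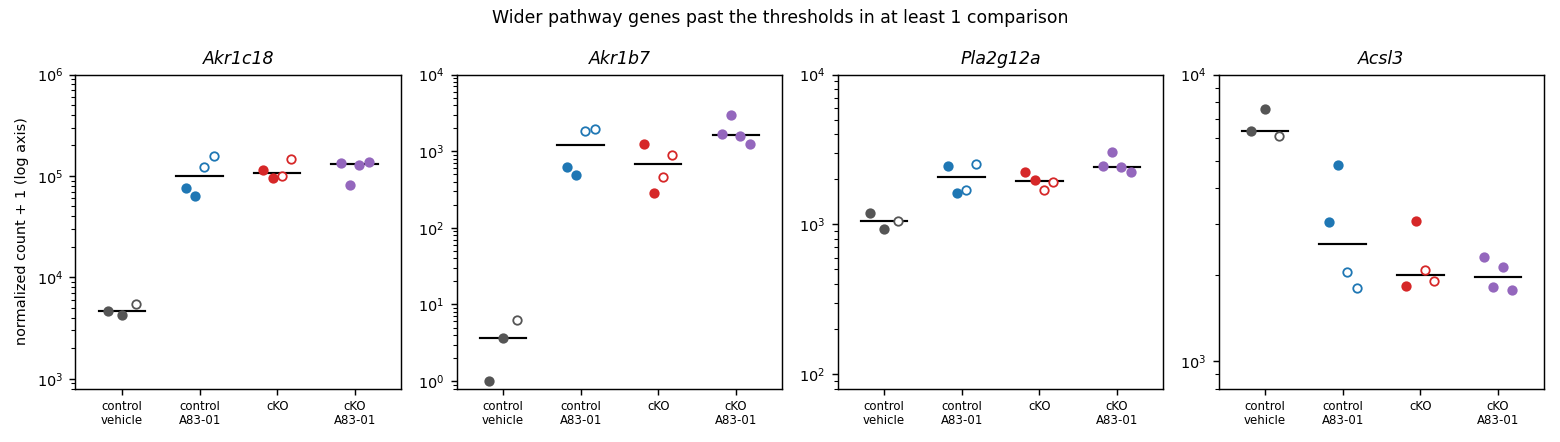
Normalized count plus 1 (log axis) of the 4 further pathway genes that passed the thresholds, in each of the 15 samples. Bars are group medians, and open points carry label numbers of 390 or above. For Akr1c18, Akr1b7 and Pla2g12a the 12 samples with A83-01, the deletion or both lie above the 3 control + vehicle samples, and for Acsl3 they lie below.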

How the data were processed

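RNA-seq libraries of 15 organoid samples were grouped by genotype and treatment from their labels. Per the labels and methods, the authors made cDNA with the SMART-Seq v4 kit, estimated counts with Salmon 1.4.0 on GRCm39 and normalized them with DESeq2 1.32.0. The values the authors deposited, treated here as a signal, are those normalized counts, and whole reads were not recovered from them: 0.445% to 1.49% of low values in a sample were whole multiples (within 0.001) of what 1 read is worth. Depth is thus an estimate.

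Genes were matched to symbols and GRCm38 positions through GENCODE, and promoters through RefSeq GRCm38.p6. Groups were compared with limma 3.58.1 (R 4.3.3, lmFit, eBayes with trend) on log2(normalized count + 1) in genes whose mean in the samples compared reached 10. The pseudocount of 1 understates changes of low genes. Intervals of log2 fold changes were taken from the limma standard error with a normal approximation. They are thus narrower than the moderated t-distribution behind the p-values would give. Thresholds were those given in the report, with adjustment over all genes tested, and the script was tested on simulated data. Count models were not run on normalized values. The main fits did not pair samples. As an alternative, samples of the control groups were paired where their labels carry the same number. The deviations from the group means correlated at r = 0.365 to 0.427 within these pairs. Other combinations averaged −0.136, which is no separate evidence, since deviations cancel out within a group. Control + A83-01 replicate 4, which has no partner, correlated at 0.355 with control + vehicle replicate 3. Smad2/3 cKO replicate 2 and Smad2/3 cKO + A83-01 replicate 1 also share a number, 369, and correlated at r = 0.365. Samples of these groups with different numbers reached 0.372, 0.390 and 0.393, so this r does not mark a shared number. The samples numbered 369 were not paired, since the replicate block between these groups matched samples by replicate number. Beyond these numbers the labels do not tie samples to mice, and p-values measure the spread between these samples.

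All 10 genes were named throughout, with Smad2, Smad3, every wider pathway gene past the thresholds in a comparison of 2 groups, and the 3 most alike genes of each gene that passed. The genes, lists and tests were chosen with earlier results of these data known. Alternatives were other pseudocounts, filters, scalings and weights, no trend, a replicate block, the label number series, all 4 groups in 1 fit, a looser threshold and leaving out each sample.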

Additional observations from a re-analysis of the deposited data

Results flagged for a closer look

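Among 39 groups of 4 samples examined, 4 had a sample far from the rest by Dixon's criterion, and chance gives about 1 in 20 such groups. Ptgs1 in Smad2/3 cKO + A83-01 replicate 3, the most deeply sequenced library, was 3649 against 1776 to 1954 in the other samples of its group. Ptger4 in control + A83-01 replicate 2 was 2492 against 2119 to 2157. Ptgr1 in Smad2/3 cKO + A83-01 replicate 1 was 921 against 1475 to 1527. Akr1c18 in Smad2/3 cKO + A83-01 replicate 2 was 82169 against 129039 to 137939.

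The effect of A83-01 differed between genotypes for Akr1c18 and Akr1b7, by the interaction in limma: the log2 fold change was lower in Smad2/3 cKO organoids by −4.31 for Akr1c18 (adjusted p = 4.62e-05) and by −6.96 for Akr1b7 (adjusted p = 0.000863). The value for Akr1b7 ran from −8.27 to −4.86 across pseudocounts and models, and its control + vehicle samples had 0 to 5.31 counts.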

How the results depend on the processing

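Between Smad2/3 cKO and control + vehicle, the 2 prostaglandin genes past the thresholds (Pla2g4a and Ptges2) became 1 with no filter on low values, with equal sample totals (Ptges2 both times) and with all 4 groups in the fit (Pla2g4a). They became 0 with eBayes without trend and 0 with a replicate block, and 3 at an adjusted p below 0.05, with Ptgr1. Leaving out 1 sample gave 0 to 2. The other comparisons had 0 throughout. Among 1301 fits of single genes under alternatives 1236 stayed on their side of the thresholds, 24 lost a call, 7 gained one and 34 changed sign, of which 0 had been past the thresholds.

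With the number series as a covariate Ptgs1 was 0.024 rather than −0.11 in control + A83-01 against control + vehicle. With a replicate block it was 0.0034 in Smad2/3 cKO against control + vehicle, and with equal totals Pla2g4a was −0.0084 in Smad2/3 cKO + A83-01 against Smad2/3 cKO. Leaving out 1 sample, Ptgs1 ran from −0.71 to 0.29 and Ptger2 from −0.92 to 1.79 in control + A83-01 against control + vehicle, and Ptgs1 from −0.81 to 0.19 in Smad2/3 cKO against control + vehicle. Between Smad2/3 cKO + A83-01 and Smad2/3 cKO the ranges were −0.079 to 0.23 for Pla2g4a, −0.10 to 0.31 for Ptgs1, −0.048 to 0.86 for Ptgs2, −0.088 to 0.80 for Ptges, −0.20 to 0.034 for Ptges2, −0.19 to 0.085 for Ptges3, −0.14 to 0.26 for Ptgr1, −0.21 to 0.043 for Acsl3 and −0.0096 to 0.24 for Akr1c18. Against control + A83-01 they were −0.20 to 0.15 for Ptgs1, −0.63 to 0.21 for Ptgs2, −0.22 to 1.29 for Ptges and −0.089 to 0.53 for Ptgr1. The interaction ran from −0.15 to 0.85 for Ptgs1 and from −2.08 to 0.63 for Ptger2. The cause was not tested.

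The call of Pla2g12a was lost with eBayes without trend, with a replicate block and without any 1 sample other than Smad2/3 cKO replicate 3, at log2 fold changes of 0.80 to 0.98. Akr1c18, Akr1b7 and Acsl3 kept their calls in Smad2/3 cKO against control + vehicle under every alternative run. Over all genes the 970 calls of that comparison became 211 with a replicate block, 452 without trend and 280 to 992 without 1 sample (280 without control + vehicle replicate 1). The 295 with A83-01 became 146 with no filter, 200 without trend, 582 with sample weights, 443 with the number series, 642 with all 4 groups and 49 to 312 without 1 sample (49 without control + vehicle replicate 2). With the replicate block on the control pairs there were 399 calls. An adjusted p below 0.05 gave 2410 and 955 calls in these comparisons and 208 for the interaction. The 72 calls of the interaction became 127 with sample weights and 39 to 77 without 1 sample, and the 3 of Smad2/3 cKO + A83-01 against control + A83-01 became 0 to 5. Equal totals turned the split of the genotypes under vehicle from 536 higher and 434 lower to 440 and 538, and lowered the median of all genes by up to 0.11 on the log2 scale. The number series was not run for the comparisons with Smad2/3 cKO + A83-01, whose samples all lie below 390, nor all 4 groups for the interaction, which uses them already. Low counts limit Ptges and Ptger2, and for Hpgd no difference was detectable at this depth.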
